A study of Homo sapiens with 2 samples.

Results

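The mitochondrial carrier family was examined in Huh7 cells, an established human hepatocellular carcinoma line, in which CD24 had been knocked down. Members were the probe sets with a single gene symbol starting with SLC25A, or with the symbol UCP1, UCP2, UCP3, MTCH1 or MTCH2. This gave 110 of 41091 probe sets and 55 of 19775 gene symbols, of which 50 were protein-coding genes (104 probe sets) and the other 5 antisense RNAs or a pseudogene. SLC25A6 and SLC25A52 were not analysed here. The CD24 shRNA culture carried a stable lentiviral short hairpin against CD24, and the control culture carried a stable lentiviral non-target hairpin. Both were grown in DMEM with fetal bovine serum and antibiotics, and the total RNA of each culture was measured on 1 Affymetrix array. The labels do not state whether a transduced line was a pool or a clone.

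Carriers of this family are small proteins of the inner mitochondrial membrane, built from a repeated pair of membrane helices, that exchange metabolites, nucleotides, phosphate and cofactors between matrix and cytosol. Their traffic joins the citric acid cycle, oxidative phosphorylation and amino acid breakdown to pathways outside the mitochondrion. In liver they serve, among others, the urea cycle, the malate-aspartate shuttle, citrate export for lipid synthesis and the entry of fatty acids for oxidation. A few relatives sit elsewhere, in the outer mitochondrial membrane (MTCH1, MTCH2, SLC25A46) or in peroxisomes (SLC25A17).

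The deposited values were log2 values centred within each probe set, so that the 2 arrays had equal and opposite values, and levels were not in the table. The quantity given throughout is the log2 difference, CD24 shRNA minus control, as the mean over the probe sets of a gene. With 1 array per group there was no replicate check and no p-value. The SD given is over the probe sets of 1 gene and does not cover the spread between cultures. Over the 10523 genes with 2 or more probe sets, probe sets of a gene differed with a pooled SD of 0.27. CD24 itself lay at a centred value of -0.68 in the CD24 shRNA array and 0.68 in the control array, a log2 difference of -1.37 ± 0.38 (SD, 6 probe sets). Over all genes, 47.5% lay below 0 and 49.4% above. Of 10 hepatocyte and hepatoma markers, 9 were measured, with a median log2 difference of -0.29 and 7 below 0. Of 10 stellate cell and fibroblast markers, 8 lay above 0 (median 0.21), and the means of TAGLN, COL3A1 and LUM were at least 2-fold higher with CD24 shRNA. Their probe sets disagreed: TAGLN lay at 2.67 ± 2.27 (SD, 3 probe sets, lowest 0.05), COL3A1 at 2.35 ± 1.77 (SD, 5 probe sets, lowest 0.11, 4 of them dim) and LUM at 1.12 ± 1.41 (SD, 2 probe sets, 0.13 and 2.12, both dim), where dim means that the digits of the file place the dimmer array below a log2 value of 4. The 5 endothelial markers (median -0.05, 4 below 0) and the 3 leukocyte markers measured (median 0.08, 1 below 0) held no gene past 1.5-fold. Summed marker levels cannot be had from centred values, and the part of these cell types in the results below was not tested. In cultures measured in bulk, fewer cells of a type and less RNA per cell cannot be told apart.

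No carrier gene was 2-fold higher or 2-fold lower with CD24 shRNA, against 0.632% and 0.485% of all genes. At 1.5-fold, 1 of 50 carriers was lower and 0 were higher, against 2.38% and 2.63% of all genes. The 1 carrier was SLC25A18, a mitochondrial glutamate carrier. These counts are near the shares over all genes, and nothing particular to the carriers is read from them. By sign, 33 of 50 carriers, or 66.0%, lay below 0, against 47.5% of all genes, and 17 lay above 0, against 49.4%. The median over carriers was -0.08 (quartiles -0.17 and 0.07), and the median over all genes was 0 (quartiles -0.14 and 0.14). The 302 other solute carrier genes, which are mostly transporters of the plasma membrane and other organelles, had a median of -0.04 with 57.3% below 0. Scaling the arrays on their hybridisation controls added 0.11 to every difference, which put the carrier median at 0.03 and that of all genes at 0.11, with 30 carriers above 0 and 20 below. The split by sign therefore depends on the scaling. The distance between the carrier median and that of all genes does not, because every gene received the same shift. The share of all genes on each side of 0 under this scaling is not given here. The carrier median is smaller in size than the pooled SD between probe sets. That SD describes probe sets of 1 gene and does not measure the precision of a median over genes.

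**Figure D1:**
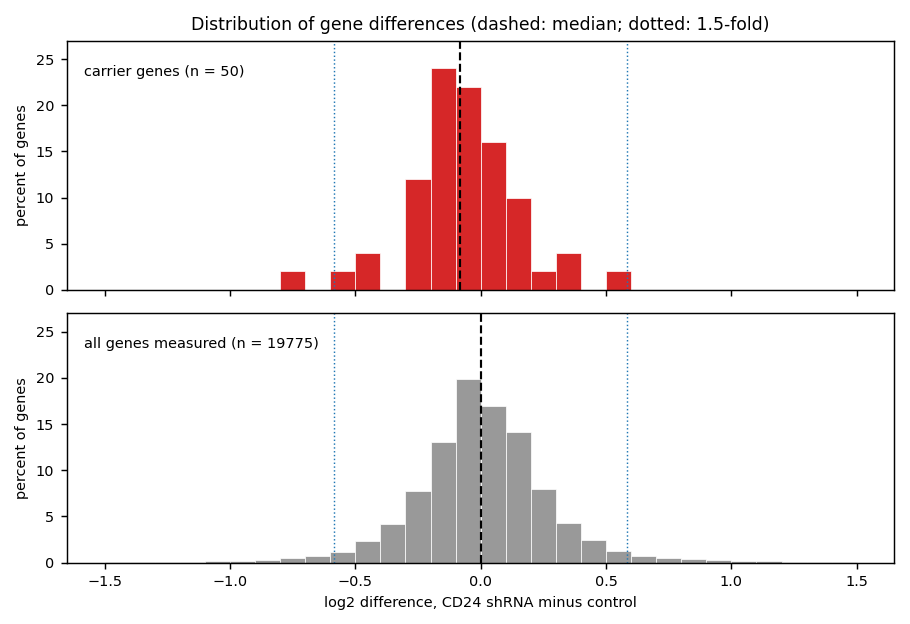
Percent of genes by log2 difference (CD24 shRNA minus control) in steps of 0.1, for 50 carrier genes (upper panel) and all 19775 genes (lower panel; the axis leaves out the tails), with medians dashed and 1.5-fold dotted. Carriers lie mostly between -0.3 and 0.2, with the median at -0.08 and 1 gene beyond 1.5-fold.

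The SD over genes was 0.22 for carriers and 0.30 for all genes, whose values include long tails (-2.56 to 3.24), and no test of this difference was made. Probe sets placed near the background, where the digits of the file put the dimmer array below a log2 value of 4, were 17.3% of carrier probe sets and 25.7% of all, and their part in the spread was not tested. Of the 50 carriers, 41 lay within the pooled SD between probe sets (82.0%, against 76.0% of all genes). Beyond it were 5 lower carriers, against 11.8% of all genes, and 4 higher ones, against 12.2%. The 5 lower were SLC25A18, SLC25A36, SLC25A45, SLC25A23 and SLC25A42, and the 4 higher were SLC25A21, SLC25A51, UCP2 and SLC25A17. In 7 of these 9 genes no probe set had the opposite sign to the mean, and 5 of the 7 had 2 or more probe sets. The exceptions were SLC25A36 and SLC25A42, each with 1 probe set above 0. The 9 genes were picked by the mean of these same probe sets, so agreement in sign is partly built in. A gene with 1 probe set cannot disagree in sign. No share over all genes beyond the pooled SD is set beside this count, and nothing is read from it.

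**Figure D2:**
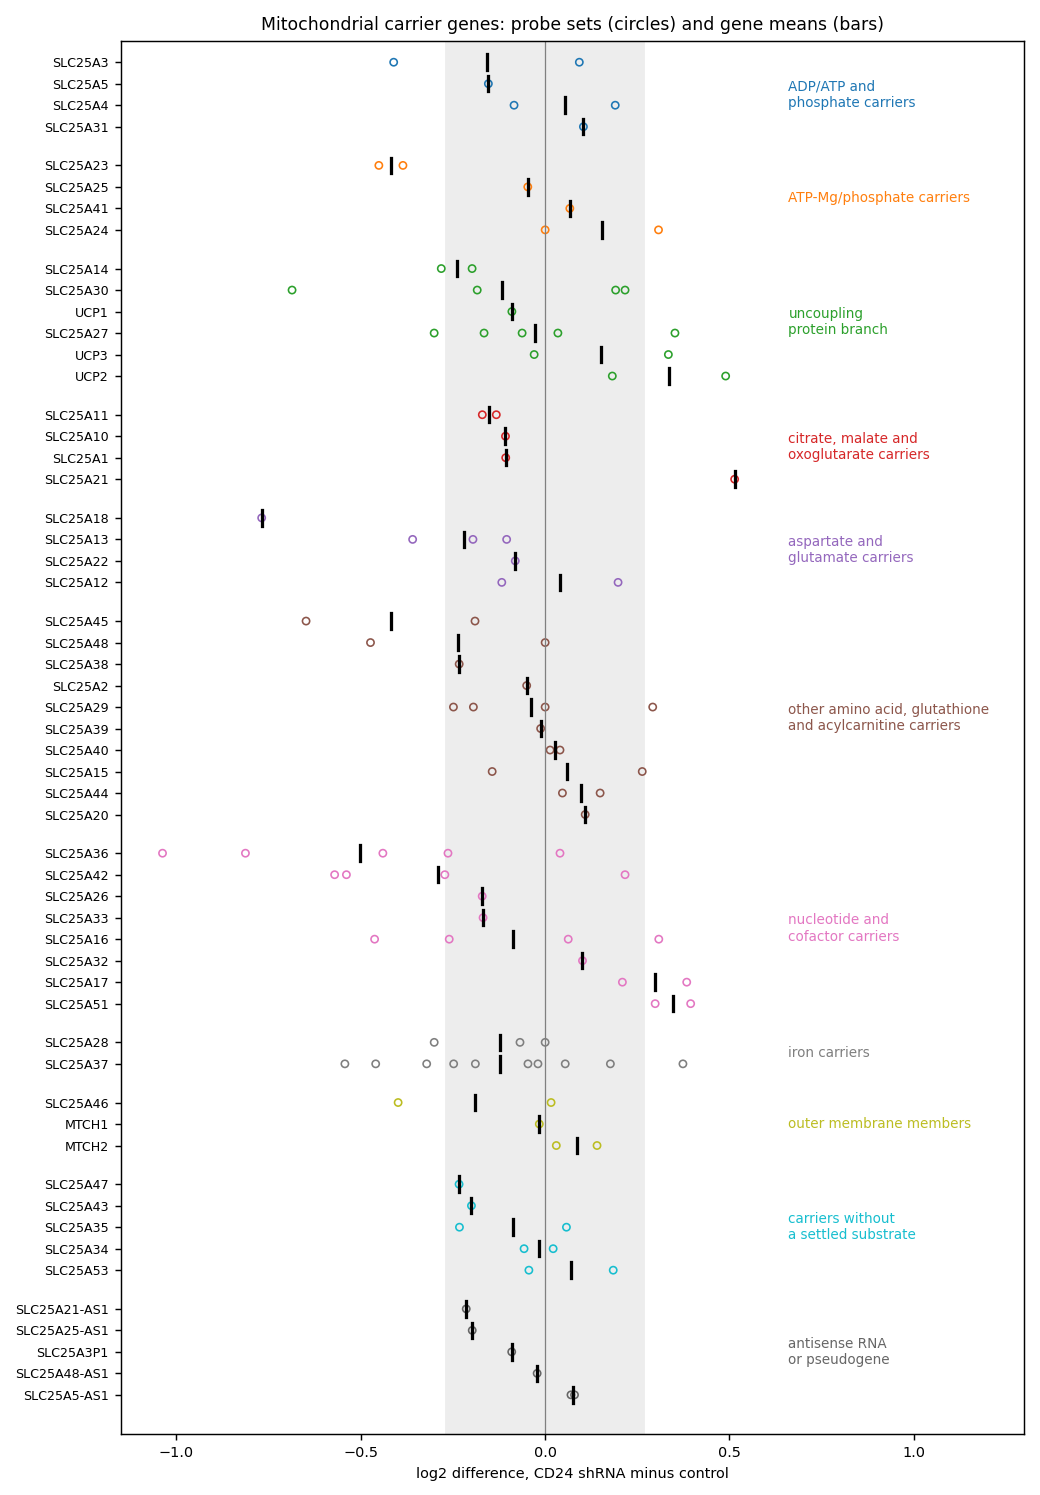
Log2 difference (x axis, CD24 shRNA minus control) of every probe set (circles) and the gene mean (bars) for 55 gene symbols found by the rule, grouped by what the protein carries; the grey band is the pooled SD between probe sets, 0.27 to each side. The 2 lowest gene means are SLC25A18 (-0.77) and SLC25A36 (-0.50) and the highest is SLC25A21 (0.51).

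The stretch upstream of the gene start is shown for 4 of these genes, the 2 lowest, the highest, and SLC25A51, the highest carrier with 2 probe sets. Each run is the 250 bases before the start from RefSeq (GRCh38.p14), 5′ to 3′ on the gene's strand. Capitals mark the letters of the motifs listed after the sequences, on either strand.
SLC25A18 (chr22:17563248-17563497, + strand): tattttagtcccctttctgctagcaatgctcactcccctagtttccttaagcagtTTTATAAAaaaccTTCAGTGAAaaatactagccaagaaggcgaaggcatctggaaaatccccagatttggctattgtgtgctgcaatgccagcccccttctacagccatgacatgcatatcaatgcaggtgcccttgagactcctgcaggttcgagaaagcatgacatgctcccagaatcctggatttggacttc
SLC25A36 (chr3:140941586-140941835, + strand): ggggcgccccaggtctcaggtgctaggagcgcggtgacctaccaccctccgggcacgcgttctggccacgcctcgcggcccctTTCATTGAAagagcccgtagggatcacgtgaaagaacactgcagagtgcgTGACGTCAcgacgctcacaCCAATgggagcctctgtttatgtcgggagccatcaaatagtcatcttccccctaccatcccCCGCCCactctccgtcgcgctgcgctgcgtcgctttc
SLC25A21 (chr14:37172607-37172856, - strand): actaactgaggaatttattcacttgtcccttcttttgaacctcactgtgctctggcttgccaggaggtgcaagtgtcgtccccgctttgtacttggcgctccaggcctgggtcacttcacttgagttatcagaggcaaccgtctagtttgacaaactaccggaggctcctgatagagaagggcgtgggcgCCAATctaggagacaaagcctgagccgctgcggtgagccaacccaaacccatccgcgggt
SLC25A51 (chr9:37904128-37904377, - strand): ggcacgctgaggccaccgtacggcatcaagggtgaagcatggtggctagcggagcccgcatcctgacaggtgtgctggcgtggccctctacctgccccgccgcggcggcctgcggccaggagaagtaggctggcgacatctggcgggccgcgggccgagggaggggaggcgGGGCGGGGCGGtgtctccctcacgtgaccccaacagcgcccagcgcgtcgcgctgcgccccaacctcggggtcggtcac
The motifs searched were GCGCATGC (NRF1, a regulator of mitochondrial genes), CCGGAAG (ETS factors such as GABPA), TGACGT (CRE), TTCNNNGAA (STAT), GGGCGG (GC box), CCAAT and TATAAA. Matches of one motif on the 2 strands can overlap, as TGACGT does with its own reverse complement in SLC25A36, and GC boxes can overlap each other. Of the 50 carriers, 43 had at least 1 upstream stretch, with 56 stretches in all because some genes have several starts. GC boxes were in 66.1% of the 56 carrier stretches, against 42.6% of 35097 stretches of all genes. The ETS motif was in 19.6% against 8.52%, the STAT motif in 8.93% against 6.57%, the CRE in 8.93% against 7.10%, CCAAT in 37.5% against 32.0%, TATAAA in 7.14% against 10.7% and the NRF1 motif in 1.79% against 2.63%. SLC25A18 held a STAT motif and TATAAA and no GC box, and SLC25A36 held a STAT motif, a CRE, a GC box and CCAAT. SLC25A21 held CCAAT alone, and SLC25A51 held overlapping GC boxes alone. These matches describe letters in the stretch and not binding.

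Among the carriers of aspartate and glutamate, SLC25A18 was the lowest of all carriers. Its 1 probe set had a centred value of -0.38 in the CD24 shRNA array and 0.38 in the control array, a log2 difference of -0.77, or 1.70-fold lower, and 1.16% of all genes lay lower. SLC25A22, the other glutamate carrier, had a difference of -0.08 (1 probe set). SLC25A13 (citrin), the aspartate/glutamate carrier typical of liver and a part of the malate-aspartate shuttle, lay at -0.22 ± 0.13 (SD, 3 probe sets), with all 3 probe sets below 0. SLC25A12 (aralar), its counterpart in brain and muscle, lay at 0.04 ± 0.22 (SD, 2 probe sets), with 1 probe set on each side of 0.

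The carriers of citric acid cycle intermediates differed by little, apart from SLC25A21. SLC25A1, which exports citrate for fatty acid and sterol synthesis, had a difference of -0.11 and SLC25A10, the dicarboxylate carrier, also -0.11 (1 probe set each). SLC25A11, the malate/oxoglutarate carrier of the malate-aspartate shuttle, lay at -0.15 ± 0.03 (SD, 2 probe sets), with both probe sets below 0. SLC25A21, which carries oxoadipate and oxoglutarate, had a centred value of 0.26 in the CD24 shRNA array and -0.26 in the control array, a difference of 0.51, or 1.43-fold higher. That value rests on 1 probe set, and the digits of the file place its dimmer array below a log2 value of 4, near the background.

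Nucleotide and cofactor carriers held 4 of the 9 genes beyond the pooled SD. Of 8 measured, 5 lay below 0 and 3 above, against 47.5% and 49.4% of all genes. SLC25A36, a pyrimidine nucleotide carrier, had a mean difference of -0.50 ± 0.43 (SD, 5 probe sets), 1.42-fold lower. Its probe sets lay at -1.04, -0.81, -0.44, -0.26 and 0.04. The lowest is the only carrier probe set past 2-fold, and it and the highest were placed near the background, whereas the other three, all below 0, were not. SLC25A33, the second pyrimidine nucleotide carrier, had a difference of -0.17 (1 probe set).

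SLC25A42, a carrier of coenzyme A, lay at -0.29 ± 0.36 (SD, 4 probe sets), with probe sets at -0.57, -0.54, -0.27 and 0.22. SLC25A16, also assigned to coenzyme A transport, lay at -0.09 ± 0.34 (SD, 4 probe sets), and its probe sets at -0.46, -0.26, 0.06 and 0.31 gave no common direction. Higher with CD24 shRNA were SLC25A51, the NAD carrier, at 0.35 ± 0.07 (SD, 2 probe sets, 0.30 and 0.39), 1.27-fold, and SLC25A17, a peroxisomal carrier of coenzyme A and nucleotide cofactors, at 0.30 ± 0.12 (SD, 2 probe sets, 0.21 and 0.38), 1.23-fold. The centred values of SLC25A51 were 0.17 in the CD24 shRNA array and -0.17 in the control array. SLC25A26, the S-adenosylmethionine carrier, had a difference of -0.17 and SLC25A32, a carrier of folate and FAD, 0.10 (1 probe set each).

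The ADP/ATP and phosphate carriers, which feed and empty the ATP synthase, stayed within the pooled SD. SLC25A5, an ADP/ATP carrier of dividing cells, had a difference of -0.15 (1 probe set). SLC25A4, the heart and muscle form, lay at 0.05 ± 0.19 (SD), with its 2 probe sets at -0.08 and 0.19, and SLC25A31, the testis form, at 0.10 on 1 probe set placed near the background. Probe sets disagreed for SLC25A3, the phosphate carrier: they lay at 0.09 and -0.41, with a mean of -0.16 ± 0.36 (SD, 2 probe sets). ADP/ATP carriers are close in sequence and have many processed pseudogenes, so a probe set of one may hybridise to another.

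Of the carriers that exchange ATP-Mg for phosphate and set the adenine nucleotide content of the matrix, SLC25A23 was lower on both of its probe sets, at -0.45 and -0.39. Its mean was -0.42 ± 0.05 (SD, 2 probe sets), 1.34-fold lower, and neither probe set was placed near the background. The related SLC25A24 lay at 0.15 ± 0.22 (SD), with probe sets at 0.31 and 0, and SLC25A25 and SLC25A41 had differences of -0.05 and 0.07 (1 probe set each). SLC25A23 and SLC25A41 are neighbours whose annotated spans overlap, and their differences had opposite signs.

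In the uncoupling protein branch, whose founding member UCP1 makes heat in brown fat, UCP2 had the largest difference. UCP2, which is found in many tissues, lay at 0.34 ± 0.22 (SD, 2 probe sets, 0.49 and 0.18), 1.26-fold higher, with centred means of 0.17 in the CD24 shRNA array and -0.17 in the control array. UCP3, its chromosomal neighbour and a muscle protein, lay at 0.15 ± 0.26 (SD), with probe sets at 0.33 and -0.03, and UCP1 had a difference of -0.09 (1 probe set). SLC25A14 lay at -0.24 ± 0.06 (SD, 2 probe sets), with both probe sets below 0, and SLC25A27 at -0.03 ± 0.25 (SD, 5 probe sets), with 2 above and 3 below. SLC25A30, a kidney-named relative, had the widest spread over probe sets but for SLC25A36. Its mean was -0.12 ± 0.42 (SD, 4 probe sets), and the probe sets lay at -0.69, -0.18, 0.19 and 0.22. All but the lowest of these 4 had a difference that at least 5 other probe sets of the array share to 6 decimals, as 34.7% of all probe sets do, and without such probe sets SLC25A30 lay at -0.69.

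A group of 10 carriers was assigned to other amino acids, glutathione and acylcarnitine, though no substrate is given here for SLC25A45 and SLC25A48. Of the 10 genes, 6 lay below 0 and 4 above, against 47.5% and 49.4% of all genes. SLC25A45 had the largest difference among them, -0.42 ± 0.32 (SD), with 2 probe sets at -0.65 and -0.19. The lower one was placed near the background, and without it SLC25A45 lay at -0.19. SLC25A48 had probe sets at -0.47 and 0, with a mean of -0.24 ± 0.33 (SD, 2 probe sets). SLC25A15, which exchanges ornithine and citrulline for the urea cycle, had probe sets at 0.26 and -0.14 and a mean of 0.06 ± 0.29 (SD, 2 probe sets), and its relative SLC25A2 a difference of -0.05. SLC25A20, which brings acylcarnitines into the matrix for fatty acid oxidation, had a difference of 0.11 and SLC25A38, a glycine carrier needed for heme synthesis, -0.23 (1 probe set each). SLC25A39 and SLC25A40, the glutathione carriers, lay at -0.01 (1 probe set) and 0.03 ± 0.02 (SD, 2 probe sets). SLC25A44, a carrier of branched-chain amino acids, lay at 0.10 ± 0.07 (SD, 2 probe sets) and SLC25A29, a carrier of basic amino acids, at -0.04 ± 0.24 (SD, 4 probe sets).

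The iron carriers SLC25A37 and SLC25A28, or mitoferrins 1 and 2, which deliver iron for heme and iron-sulfur clusters, had the same mean of -0.12. SLC25A37, with more probe sets than any other carrier, showed how far these can part: they lay at -0.54, -0.46, -0.32, -0.25, -0.19, -0.05, -0.02, 0.05, 0.18 and 0.37 (SD 0.29, 10 probe sets). SLC25A28 had an SD of 0.16 over 3 probe sets, of which 2 were below 0 and 1 at 0. Of the outer membrane members, MTCH2, an insertase for outer membrane proteins, lay at 0.09 ± 0.08 (SD, 2 probe sets) and MTCH1 at -0.02 (1 probe set). SLC25A46, a protein of mitochondrial dynamics, had probe sets at -0.40 and 0.02, with a mean of -0.19 ± 0.29 (SD, 2 probe sets).

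Carriers without a settled substrate lay below 0 in 4 of 5 cases, against 66.0% of all carriers and 47.5% of all genes. This count depends on the scaling: with the hybridisation controls at 0, SLC25A34 lay at 0.09 and SLC25A35 at 0.02. SLC25A47, a carrier found mainly in liver, had a difference of -0.23 and SLC25A43 of -0.20 (1 probe set each). SLC25A35 lay at -0.09 ± 0.21, SLC25A34 at -0.02 ± 0.06 and SLC25A53 at 0.07 ± 0.16 (SD, 2 probe sets each). The antisense and pseudogene symbols were apart from these: SLC25A21-AS1 had a difference of -0.21, SLC25A25-AS1 -0.20, SLC25A3P1 -0.09 and SLC25A48-AS1 -0.02 (1 probe set each), and SLC25A5-AS1 lay at 0.07 ± 0.01 (SD, 2 probe sets). The value of SLC25A21-AS1 was below 0 and that of SLC25A21 above 0. SLC25A5-AS1, whose annotated span overlaps that of SLC25A5, lay above 0 and SLC25A5 below. Both probe sets of SLC25A5-AS1 were placed near the background. In the other pairs the signs were the same. SLC25A48 (-0.24) and SLC25A48-AS1, whose annotated spans overlap, lay below 0, as did SLC25A25 (-0.05) and SLC25A25-AS1.

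Carriers with a near relative were set side by side in 12 pairs chosen from textbook knowledge, with values already known. In 6 pairs both genes lay on the same side of 0, 5 of them below, and in the other 6 they lay on different sides. Only 3 pairs were further apart than the pooled SD. SLC25A22 minus SLC25A18 was 0.69, SLC25A33 minus SLC25A36 was 0.33, and SLC25A23 minus SLC25A24 was -0.57. Ranges over probe sets overlapped for SLC25A33 and SLC25A36 and did not for SLC25A23 and SLC25A24, while SLC25A22 and SLC25A18 had 1 probe set each.

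**Figure D3:**
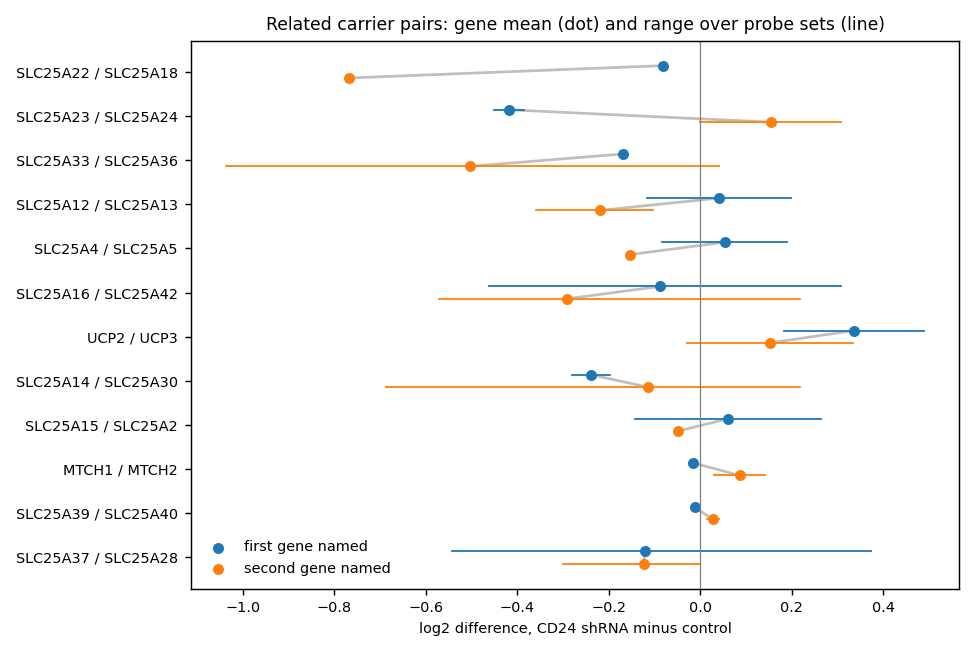
Log2 difference (x axis, CD24 shRNA minus control) of 12 pairs of related carriers, ordered by the distance between the 2 genes, with the gene mean as a dot and the range over probe sets as a line (no line for 1 probe set). The largest distance is 0.69, between SLC25A22 and SLC25A18, and the mitoferrins SLC25A37 and SLC25A28 lie together at -0.12.

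Genes that work with the carriers did not share 1 direction. The import machinery, which threads carriers through the outer membrane and into the inner one, lay mostly above 0. This held for 11 of 14 measured genes, against 49.4% of all genes, with a median of 0.09 and none past 1.5-fold. Some of these genes lay close to 0, with probe sets on both sides of it: TOMM22 (0.009), TIMM22 (0.02) and TOMM70 (0.02). The same was true of AGK (-0.05), which lay below 0. TIMM10B, a subunit of the inner membrane import complex, lay at 0.43 ± 0.34, TOMM5, a small subunit of the outer membrane pore, at 0.36 ± 0.003 and TIMM8B, an intermembrane space chaperone, at 0.32 ± 0.21, whereas TOMM20, an import receptor, lay at -0.35 ± 0.07 (SD, 2 probe sets each).

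Enzymes of the shuttles and of citrate export lay below 0 in 13 of 14 cases, against 47.5% of all genes, with a median of -0.24 and none past 1.5-fold. This count depends in part on the scaling. ME1 (-0.08) and GPD1 (-0.004) were smaller in size than the 0.11 that scaling on the hybridisation controls added to every difference. IDH1, the cytosolic isocitrate dehydrogenase, had a difference of -0.49 ± 0.15 (SD, 3 probe sets), CPT2, which releases acyl groups from the carnitine that SLC25A20 brings in, -0.49 ± 0.08 (SD, 2 probe sets), ACLY, which splits the citrate that SLC25A1 exports, -0.37 ± 0.07 (SD, 3 probe sets) and CPT1A, the first step of fatty acid entry, -0.34 ± 0.45 (SD, 4 probe sets). The carriers next to these enzymes had smaller differences, with SLC25A20 at 0.11 and SLC25A1 at -0.11. For the malate-aspartate shuttle, the enzymes GOT1 (-0.21), GOT2 (-0.27), MDH1 (-0.12) and MDH2 (-0.30) and the carriers SLC25A11 (-0.15) and SLC25A13 (-0.22) were all below 0, while the carrier SLC25A12 was not.

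Other mitochondrial transport proteins were spread on both sides, 7 of 15 above 0 and 8 below (49.4% and 47.5% of all genes), with a median of -0.05. TSPO, a cholesterol-binding protein of the outer membrane, had a difference of -1.56 on 1 probe set, 2.95-fold lower, and was the only gene of these 4 lists past 1.5-fold. MCU, the calcium uniporter pore, had a difference of 0.27 (1 probe set), SFXN1, a serine carrier, -0.25 ± 0.45 (SD, 3 probe sets) and MICU2, a regulator of the uniporter, 0.20 (1 probe set). Of 12 regulators of mitochondrial gene expression, 9 lay below 0 (median -0.05), against 47.5% of all genes. Scaling on the hybridisation controls added 0.11 to every difference, more than the size of this median. The count by sign therefore depends on the scaling. GABPB1, a partner of GABPA, lay at 0.37 ± 0.11 (SD, 2 probe sets) and TFAM, which packages and transcribes mitochondrial DNA, at 0.29 ± 0.23 (SD, 4 probe sets). The coactivators PPARGC1A and PPARGC1B lay at -0.30 ± 0.30 (SD, 2 probe sets) and -0.29 ± 0.43 (SD, 4 probe sets).

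**Figure D4:**
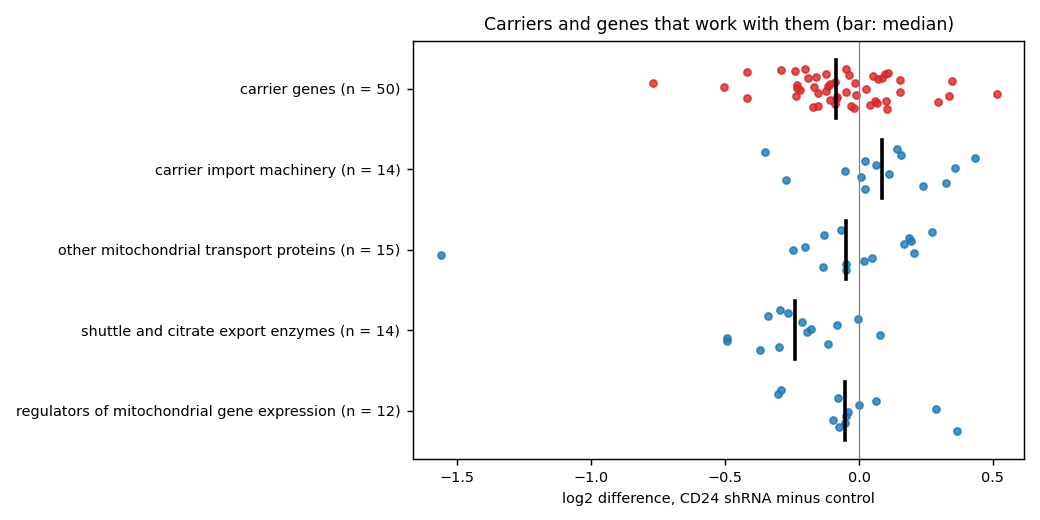
Log2 difference (x axis, CD24 shRNA minus control) of each gene (dots, spread vertically for legibility) in 5 sets, with the median as a bar. The medians are -0.08 for carriers, 0.09 for import machinery, -0.05 for other transport proteins, -0.24 for shuttle and citrate export enzymes and -0.05 for regulators; the dot at -1.56 is TSPO.

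How well a carrier was measured varied. Of 30 carriers with 2 or more probe sets, all probe sets lay on 1 side of 0 in 11, or 36.7%, against 39.9% of all such genes, 6 above and 5 below. For carriers alone the pooled SD was 0.28, which is larger than the SD over carrier genes. The other 20 carriers had 1 probe set each. Of the 104 carrier probe sets, 18 were placed near the background, and for SLC25A2, SLC25A21, SLC25A31, SLC25A48 and SLC25A53 this or a tie between the arrays held for every probe set. Dim probe sets that the file's digits do not give away are not counted here. A further 4 carrier probe sets were tied between the arrays, against 5.53% of all probe sets.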

How the data were processed

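The deposited table holds log2 values, per the submitters' processing notes from RMA by the authors. No source used here names the software, its version or a later step. In it the 2 values of each probe set sum to 0 within 1e-06 and each column has a median of 0. Of 54675 probe sets, 41091 named 1 gene in GEO's platform annotation and were used; 1801 named several, 11721 none here, and 62 were controls. Calculations used Python 3.11.15 with pandas 2.3.3 and numpy 2.4.6. A gene's value is CD24 shRNA minus control, averaged over its probe sets, and a gene counted as higher or lower at 2-fold, with 1.5-fold as a lower threshold. With 1 array per group no test was run; the number of arrays limits the precision. A probe set was placed near the background where its values have binary steps too fine for a single-precision number of 4 or more. Biotypes, neighbours and upstream stretches came from RefSeq (GRCh38.p14).

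Every carrier found was named. Probe sets are given singly for genes past 1.5-fold, for genes whose SD over probe sets exceeds the pooled SD, and for SLC25A4 and SLC25A5. Single probe sets of other carriers, among them those beyond the pooled SD, are given in addition, chosen after their values were seen. Of each partner list the 4 largest differences were named, and GOT1, GOT2, MDH1 and MDH2 in addition. ME1, GPD1, TOMM22, TIMM22, TOMM70 and AGK were named because they lay close to 0. The members, lists and pairs were chosen with earlier results of these data known. The planned use of probe sets with several symbols changed nothing, since 0 of them named a carrier. The calculation was tested on simulated data.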

Additional observations from a re-analysis of the deposited data

How the results depend on the processing

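No paired analysis was possible because each group has 1 array, and for the same reason no replicate could be left out. Medians over probe sets, dropping the _x_at probe sets, dropping both the _s_at and the _x_at probe sets, dropping those placed near the background, centring on all genes, and adding the antisense and pseudogene symbols (chosen after seeing the data) left the carrier counts at both thresholds as given, and the carrier median between -0.10 and -0.07. Centring on all genes could change nothing, because the median over all genes was already 0. With the largest probe set per gene, 1 carrier was 2-fold lower, 4 were 1.5-fold lower and CD24 lay at -1.97, which follows from taking the extreme probe set. Without probe sets whose difference at least 5 others share (also chosen after seeing the data), 3 of 43 carriers were 1.5-fold lower: SLC25A18, SLC25A36 (-0.64) and SLC25A30 (-0.69). With the hybridisation controls at 0, 1 carrier, SLC25A21 (0.63), was 1.5-fold higher, the carrier median was 0.027 and 13 carriers changed sign. CD24, whose probe sets all have names ending in _s_at or _x_at, had no value without these. None of the 9 carriers beyond the pooled SD changed sign in the alternatives that gave it a value, of 8 run on single genes. SLC25A21 had no value without probe sets placed near the background. This was partly fixed in advance. The 9 were picked beyond the pooled SD of 0.27, so adding 0.11 could not change a sign. SLC25A18 and SLC25A21 have 1 probe set each, so the probe set alternatives returned the same value or none. SLC25A45 ranged from -0.65 to -0.19, SLC25A42 from -0.57 to -0.18 and SLC25A36 from -1.04 to -0.39.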

Other observations

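Many probe sets of the table had exactly the same difference as others. To 6 decimals, 34.7% of the 41091 probe sets had a difference that at least 5 others share, and these took 815 distinct values, with 2274 probe sets at 0. The share was 9.26% of 108 probe sets for cytosolic ribosomal proteins, 59.8% of 107 for olfactory receptors and 73.5% of 34 for keratin-associated proteins. Of the probe sets with a shared difference, 41.9% were also placed below a log2 value of 4, against 17.0% of the others. Among carriers it was 30 of 104 probe sets (28.8%), and 7 carriers had no other kind: SLC25A2, SLC25A12, SLC25A31, SLC25A35, SLC25A41, SLC25A47 and SLC25A53. SLC25A30 and SLC25A42, for example, each had a probe set at 0.216758. Shared differences reached at most 0.75 in size, so a small difference of a carrier can be one of these values. The cause was not tested.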
